A study of Mus musculus with 6 samples.

Results

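The Wnt and beta-catenin pathway was followed in sorted brain endothelial cells through 10 genes, chosen by name from a table of 54532 genes: the feedback targets Axin2, Lef1, Apcdd1, Nkd1 and Znrf3, and the receptors and receptor partners Fzd4, Fzd6, Lrp5, Tspan12 and Adgra2. All 10 were found under these names. All 10 were among the 11277 genes with FPKM (fragments per kilobase of gene, scaled to a library size) of at least 1 in at least 3 libraries. The genes were chosen with the bezafibrate contrast of these libraries known, in which Axin2 stood high, so their differences between the chows are given as a description, without a test.

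The libraries came from mice of 12 to 16 weeks, and every one of them, untreated ones included, was Df(h22q11)/+, that is, heterozygous for an engineered deletion used as a model of 22q11.2 deletion syndrome. For 4 weeks the bezafibrate group ate chow with 0.5% bezafibrate, a lipid-lowering agonist of PPAR nuclear receptors (1 female library, F_1, and 2 male libraries, M_1 and M_2), and the untreated group ate irradiated base chow (2 female libraries, F_1 and F_2, and 1 male library, M_1). Each library pooled 3 brains of mice alike in sex and chow, and held live cells sorted as CD31-positive, CD45-negative and PDGFRb-negative. The replicates are therefore pools, and wild-type mice were not analysed here.

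Wnt ligands bind a Frizzled receptor together with the co-receptor LRP5 or LRP6, which stops the destruction complex from degrading beta-catenin, so that beta-catenin enters the nucleus and works with TCF and LEF factors. Brain endothelium depends on this pathway to form and keep the blood-brain barrier, through the receptor complex of FZD4, LRP5 and TSPAN12 for the ligand Norrin and through ADGRA2 (GPR124) and RECK for WNT7A and WNT7B. Several of the genes that the pathway switches on encode its own inhibitors, and their mRNA is commonly read as a measure of signalling.

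Depth was even, at 16858130 to 20228619 recovered reads per library, and the members had between 174 reads (Znrf3 in untreated M_1) and 14682 reads (Apcdd1 in untreated F_1). Summed FPKM of 10 endothelial markers was 2342 to 3208 in bezafibrate and 2787 to 3366 in untreated libraries, and all 10 were on average lower with bezafibrate. Pericyte RNA was also measured despite the gate: the sum of 7 pericyte markers was 181 to 256 and 185 to 333 FPKM, led by Rgs5 (88.5 to 132 and 97.1 to 164 FPKM), and 6 of the 7 were on average lower with bezafibrate, while the sorted-out Pdgfrb itself had 7.67 to 9.13 and 6.29 to 12.2 FPKM. The 4 neuronal markers summed to 1.69 to 3.76 and 2.19 to 3.35 FPKM, most of it Tubb3. The part of these levels in the members' values was not tested. Untreated M_1 and bezafibrate F_1 stood apart along principal component 1 (39.3% of variance), at scores of -30.3 and -24.4 against -1.62 to 22.6 in the other 4 libraries. In bulk RNA, fewer cells of a type and less RNA per cell cannot be told apart.

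Axin2 was the member with the clearest difference between the chows. This gene (ENSMUSG00000000142, chromosome 11, 108920349 to 108950783, plus strand, GRCm38) encodes a scaffold of the destruction complex and is a direct target of beta-catenin, so that its product feeds back on the pathway. Axin2 had 16.7, 17.9 and 17.4 FPKM in bezafibrate F_1, M_1 and M_2, against 9.29, 9.47 and 11.3 FPKM in untreated F_1, F_2 and M_1. Every bezafibrate library lay above every untreated library, and the nearest libraries of the groups were bezafibrate F_1 and untreated M_1. In whole reads these values were 1654, 2091 and 1804 in bezafibrate libraries and 1029, 929 and 1159 in untreated libraries. The means were 17.3 ± 0.592 and 10.03 ± 1.13 FPKM (SD, n = 3 each), a 1.73-fold ratio of bezafibrate over untreated and a difference of 0.74 in log2(FPKM + 1) (SE 0.133), a scale that understates the change of low genes. A difference as large in either direction was found in 259 of the 11277 tested genes, Axin2 included.

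The Axin2 values were tight within the groups. The within-group SD of log2(FPKM + 1) was 0.11 for Axin2, against a median of 0.23 over all tested genes, and 91.2% of tested genes varied more. Axin2 was chosen with these values known, so its small spread is a description and no support for the difference. Within the sexes the difference was 0.77 between the female libraries and 0.60 between the male libraries, on the log2(FPKM + 1) scale. Both had to lie above 0, since the Axin2 groups did not overlap. Of the Axin2 exon bases, 3.80% are shared with the antisense gene Gm11670, whose reads cannot be told apart from those of Axin2 without strand.

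Axin2 is also made outside the endothelium, for example in the oligodendrocyte lineage, so marker levels are given beside it. Summed FPKM of 7 oligodendrocyte markers was 77.6 to 85.9 in bezafibrate and 79.5 to 135 in untreated libraries, and all 7 were on average lower with bezafibrate. That of 4 oligodendrocyte precursor markers was 10.7 to 12.7 and 9.91 to 20.5 FPKM, and that of 6 astrocyte markers 24.6 to 45.9 and 38.1 to 57.6 FPKM. The sum of 6 markers of choroid plexus and ependyma lay the other way, at 406 to 936 FPKM in bezafibrate and 358 to 401 FPKM in untreated libraries, without overlap. Of the bezafibrate sums, 397 to 919 FPKM was Ttr. On average 5 of the 6 markers were higher with bezafibrate. Ttr and Clic6 did not overlap between the chows, and Folr1, Kcnj13, Foxj1 and Ccdc153 did. Among all tested genes, 8.42% did not overlap. The lowest bezafibrate sum, 406 FPKM in F_1, lay near the highest untreated sum, 401 FPKM in F_1. None of these lists had a marker at 0 in every library, and the part of such cells in the Axin2 values was not tested.

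The RefSeq promoter sequences (GRCm38.p6) of Axin2 and of the receptor gene Fzd4 are shown as those of the member with the largest difference between the chows and of the Norrin receptor. Each covers the 250 bases before the RefSeq gene start on the plus strand, chr11:108920099-108920348 for Axin2 and chr7:89404116-89404365 for Fzd4, with matches to the GC box GGGCGG on either strand in capitals.
Axin2: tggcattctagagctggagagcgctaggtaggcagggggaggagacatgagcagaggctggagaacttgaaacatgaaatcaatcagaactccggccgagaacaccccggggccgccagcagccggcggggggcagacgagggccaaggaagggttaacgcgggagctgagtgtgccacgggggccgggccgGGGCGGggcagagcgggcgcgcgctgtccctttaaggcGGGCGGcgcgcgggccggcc
Fzd4: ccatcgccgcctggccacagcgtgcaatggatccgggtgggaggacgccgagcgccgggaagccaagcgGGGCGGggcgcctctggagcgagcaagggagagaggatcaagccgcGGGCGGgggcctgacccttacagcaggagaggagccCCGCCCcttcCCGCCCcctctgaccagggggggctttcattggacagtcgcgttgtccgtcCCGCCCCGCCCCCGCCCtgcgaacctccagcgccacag
Promoter entries were matched for 5 of the 10 members, Axin2, Fzd4, Lef1, Nkd1 and Tspan12, with 4 entries for Lef1. GC boxes numbered 2 in the Axin2 sequence and 7 in that of Fzd4, some of them overlapping, and 32.7% of 32851 promoter windows of this length held at least 1. The TCF and LEF motif, searched on both strands as CTTTGAA and its variants that end in AT, TA or TT, had no match in the Axin2 or Fzd4 window and 1 match among the others, CTTTGTA on the minus strand of the most downstream Lef1 window. Of all promoter windows, 14.8% held at least 1 such match. The DR1 motif of PPAR, 2 copies of AGGTCA with 1 base between them, had no match in the windows of these 5 members and was found in 0.0335% of all. These matches are descriptions of letters, and binding was not measured.

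**Figure D1:**
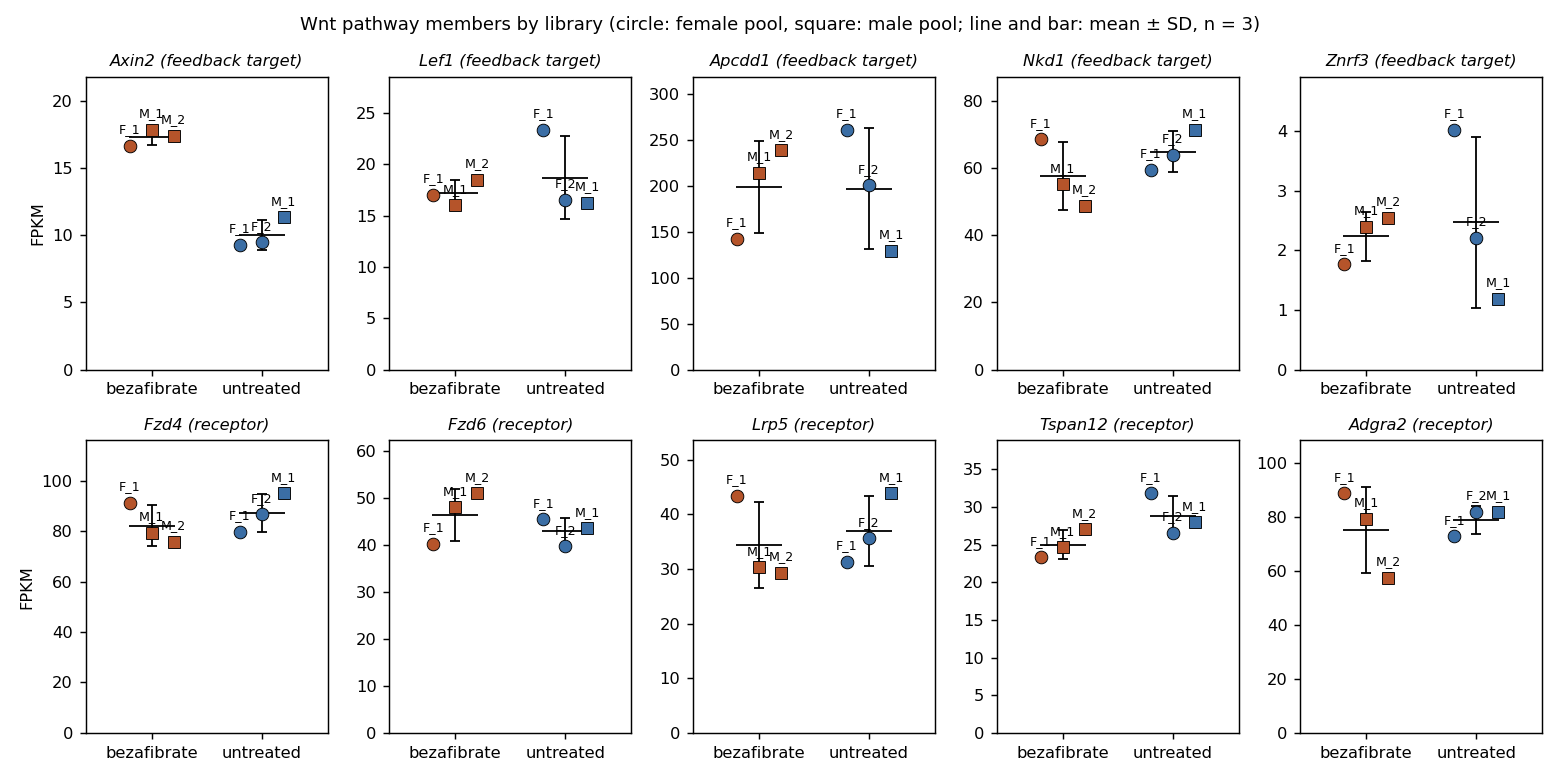
FPKM of each member (y axis, from 0) in the 3 bezafibrate and the 3 untreated libraries, with circles for female and squares for male pools and the mean ± SD of each group (n = 3). Axin2 is the 1 member whose groups do not overlap, at 16.7 to 17.9 FPKM in bezafibrate and 9.29 to 11.3 FPKM in untreated libraries.

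The other feedback targets did not share this pattern. Lef1, which encodes the HMG-box factor that beta-catenin partners (ENSMUSG00000027985, chromosome 3, 131110471 to 131224356, plus strand), had 17.0, 16.0 and 18.5 FPKM in bezafibrate F_1, M_1 and M_2, against 23.3, 16.5 and 16.2 FPKM in untreated F_1, F_2 and M_1. Untreated F_1 was the high library, and the other 5 lay within 16.0 to 18.5 FPKM. The difference of Lef1 was -0.10 (SE 0.171) in log2(FPKM + 1), and 13.7% of its exon bases are shared with the antisense gene Gm43352.

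Nkd1 encodes a Dishevelled-binding inhibitor of the pathway (ENSMUSG00000031661, chromosome 8, 88521354 to 88594884, plus strand). It had 68.5, 55.1 and 48.7 FPKM in bezafibrate F_1, M_1 and M_2 and 59.4, 63.7 and 71.3 FPKM in untreated F_1, F_2 and M_1. The groups overlapped through bezafibrate F_1, which was higher than untreated F_1 and F_2, and the difference was -0.18 (SE 0.165). Apcdd1, on chromosome 18, encodes a membrane-bound Wnt inhibitor and was the most abundant member per length, at the 2799 bases that the authors list. GENCODE M21 places this gene otherwise and gives it 12884 exon bases, so its level beside the other members depends on the length used. Its values were 142, 214 and 239 FPKM in bezafibrate F_1, M_1 and M_2, against 261, 200.3 and 129 FPKM in untreated F_1, F_2 and M_1. Both groups spanned nearly the same range, with means of 198 ± 50.02 and 197 ± 65.98 FPKM (SD, n = 3 each) and a log2 difference of 0.04 (SE 0.295).

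Znrf3, the E3 ligase that removes Frizzled receptors from the cell surface (ENSMUSG00000041961, chromosome 11, 5276324 to 5444847, minus strand), was the lowest member. It had 1.77, 2.40 and 2.55 FPKM in bezafibrate F_1, M_1 and M_2 and 4.03, 2.21 and 1.19 FPKM in untreated F_1, F_2 and M_1. The untreated libraries held both the highest and the lowest value, and the log2 difference was -0.03 (SE 0.300). These low values rest on 251 to 402 reads in bezafibrate and 174 to 639 reads in untreated libraries.

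The receptors lay close together in the groups. Fzd4, the Frizzled that binds Norrin (ENSMUSG00000049791, chromosome 7, 89404355 to 89413134, plus strand), had 91.2, 79.3 and 75.7 FPKM in bezafibrate F_1, M_1 and M_2, against 79.8, 86.7 and 95.1 FPKM in untreated F_1, F_2 and M_1. The groups overlapped over most of their range, with a log2 difference of -0.09 (SE 0.141). Its co-receptor gene Lrp5 (ENSMUSG00000024913, chromosome 19, 3584828 to 3686564, minus strand) had 43.4, 30.3 and 29.3 FPKM in bezafibrate F_1, M_1 and M_2 and 31.3, 35.6 and 43.8 FPKM in untreated F_1, F_2 and M_1. Bezafibrate F_1 and untreated M_1 were the high libraries of their groups, and the log2 difference was -0.11 (SE 0.1996).

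Tspan12, the tetraspanin that strengthens Norrin signalling at FZD4 (ENSMUSG00000029669, chromosome 6, 21771395 to 21852515, minus strand), had 23.3, 24.7 and 27.05 FPKM in bezafibrate F_1, M_1 and M_2, against 31.8, 26.6 and 28.0 FPKM in untreated F_1, F_2 and M_1. Only bezafibrate M_2 lay above the lowest untreated library, F_2, so that the groups overlapped by 1 library each. The log2 difference of Tspan12 was -0.20 (SE 0.135), the lowest among the members. Adgra2 (ENSMUSG00000031486, chromosome 8, 27085583 to 27123436, plus strand), the WNT7 co-activator that works with RECK, had 88.7, 79.2 and 57.4 FPKM in bezafibrate F_1, M_1 and M_2 and 72.7, 81.9 and 81.8 FPKM in untreated F_1, F_2 and M_1. The lowest and the highest of its 6 values were both in bezafibrate libraries, and the log2 difference was -0.09 (SE 0.183).

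Fzd6, a Frizzled known mainly from planar cell polarity (ENSMUSG00000022297, chromosome 15, 39006034 to 39038188, plus strand), had 40.2, 48.0 and 51.0 FPKM in bezafibrate F_1, M_1 and M_2, against 45.4, 39.7 and 43.5 FPKM in untreated F_1, F_2 and M_1. Both bezafibrate male libraries lay above all untreated libraries and bezafibrate F_1 did not. Among the receptors, Fzd6 alone had a log2 difference above 0, at 0.11 (SE 0.143). Of their exon bases, Fzd6, Tspan12 and Adgra2 share 3.15%, 2.96% and 1.26% with genes on the other strand.

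**Figure D2:**
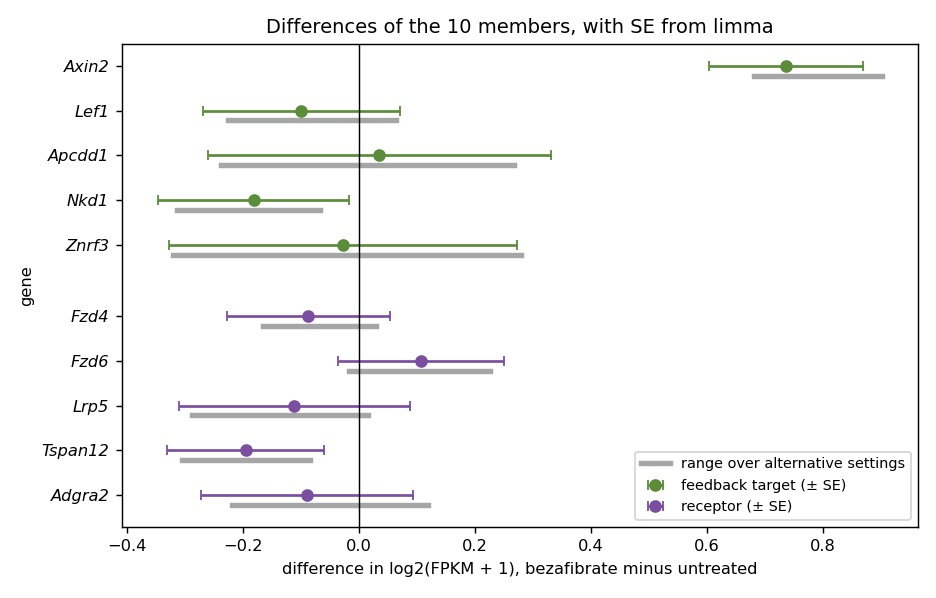
Difference in log2(FPKM + 1), bezafibrate minus untreated, of each member with its SE from limma (points and bars), and the range over the alternative settings (grey). Axin2 lies at 0.74 and the other 9 members between -0.20 and 0.11.

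Across the 10 members, 3 differences lay above 0 and 7 below, where 48.2% of all 11277 tested genes lay above 0. The median of the members was -0.09, beside -0.01 over all tested genes. The groups did not overlap in 1 member, Axin2, and in 8.42% of all tested genes (4.29% with bezafibrate above, 4.13% below). Over all tested genes, limma called 0.00887% at an adjusted p under 0.05, the 1 microRNA gene Gm27616, and limma-voom on whole reads called 0. The sign of the difference was the same in every alternative setting for Axin2, Nkd1 and Tspan12 and turned in at least 1 setting for the other 7 members. For Axin2, leaving out libraries could not turn the sign, since its groups did not overlap.

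Set against each other, the feedback targets minus the receptors in mean log2(FPKM + 1) gave -1.08, -0.85 and -0.74 in the bezafibrate libraries F_1, M_1 and M_2. The untreated libraries F_1, F_2 and M_1 gave -0.78, -1.06 and -1.34. The groups overlapped, and untreated M_1 was the lowest library. The means were -0.89 ± 0.17 and -1.06 ± 0.28 (SD, n = 3 each), a difference of 0.17. With Axin2 left out of the targets, a choice made after the values were seen, the values were -0.96, -0.73 and -0.60 in bezafibrate libraries and -0.40, -0.76 and -1.15 in untreated libraries, and the difference was 0.0069. The receptors alone averaged 5.60 ± 0.09 and 5.67 ± 0.07 in log2(FPKM + 1), and the targets 4.71 ± 0.08 and 4.61 ± 0.22 (SD, n = 3 each).

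**Figure D3:**
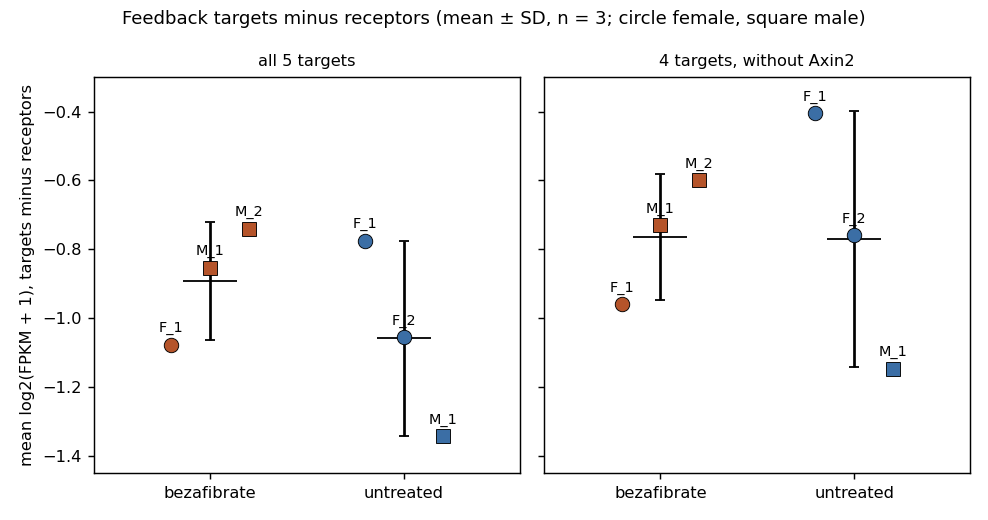
Mean log2(FPKM + 1) of the feedback targets minus that of the receptors (y axis) by library, with the mean ± SD of the 3 bezafibrate and the 3 untreated libraries, for all 5 targets (left) and without Axin2 (right). The group means differ by 0.17 with Axin2 and by 0.0069 without it.

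Per length, the order of the mean FPKM levels over the 6 libraries was Apcdd1 (198), Fzd4 (84.6), Adgra2 (76.96), Nkd1 (61.1), Fzd6 (44.7), Lrp5 (35.6), Tspan12 (26.9), Lef1 (17.9), Axin2 (13.7) and Znrf3 (2.36). Apcdd1, Fzd4, Adgra2 and Znrf3 kept their places in each of the 6 libraries. The first place of Apcdd1 rests on the authors' length of 2799 bases, against 12884 exon bases in GENCODE M21. Fzd6 lay above Lrp5 in 4 of 6 libraries, so these neighbours in the order were not separated beyond their spread. Nkd1 was above Fzd6, Lrp5 above Tspan12 and Lef1 above Axin2 in 5 of 6. The exception for the last pair was bezafibrate M_1, with 17.9 FPKM of Axin2 and 16.0 FPKM of Lef1.

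The members varied by library along a line that crossed the chows. Untreated M_1 and bezafibrate F_1, the libraries that stood apart, both lay above the other 4 libraries for Nkd1, Fzd4 and Lrp5, and both below them for Apcdd1 and Znrf3. That made 5 of 10 members, 3 at the top and 2 at the bottom, where 32.0% of all tested genes had these libraries at one end (17.1% at the top and 14.8% at the bottom). Apcdd1 averaged 136 FPKM in these libraries and 228 FPKM in the other 4, and Lrp5 43.6 and 31.6 FPKM. The within-group SD of log2(FPKM + 1) was widest for Apcdd1 (0.45) and Znrf3 (0.45), and narrowest for Axin2 (0.11), Tspan12 (0.12) and Fzd4 (0.13). Among the 60 other pathway genes tested, 20 had these libraries at one end, among them, chosen after their values were seen, Tcf7, a nuclear partner of beta-catenin, at 112, 58.6 and 59.4 FPKM in bezafibrate F_1, M_1 and M_2 and 46.0, 69.9 and 125 FPKM in untreated F_1, F_2 and M_1.

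**Figure D4:**
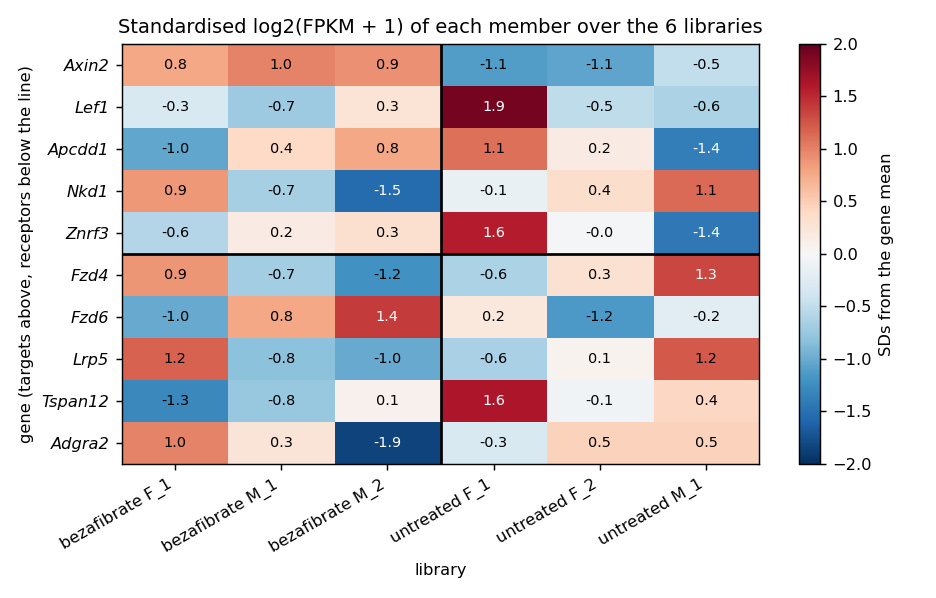
Log2(FPKM + 1) of each member, standardised to mean 0 and SD 1 over the 6 libraries (colour and printed value, in SDs from the gene's mean), with bezafibrate libraries left of the line and untreated libraries right of it. Bezafibrate F_1 and untreated M_1 share a colour at one end for Nkd1, Fzd4 and Lrp5 (high) and for Apcdd1 and Znrf3 (low), whereas Axin2 divides by chow.

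Sex was a contrast that the choice of the genes did not use, and the members were tested in it (3 male against 3 female libraries, treatment as covariate). limma called 0 of the 10 members, with a smallest adjusted p of 1.00 and 0 members at an unadjusted p under 0.05, which 2.94% of tested genes reached. Of all tested genes 0.0266% were called, the 3 genes Ddx3y and Eif2s3y of the Y chromosome, higher in males, and Xist of the inactive X, higher in females. The members' differences, male minus female in log2(FPKM + 1), lay between -0.28 for Znrf3 (SE 0.327) and 0.16 for Fzd6 (SE 0.156). Axin2 had 15.5 ± 3.65 FPKM in male and 11.8 ± 4.22 FPKM in female libraries (SD, n = 3 each). These means mix the chows, with 2 bezafibrate libraries among the males and 1 among the females. With treatment as covariate, the Axin2 difference was 0.16 (SE 0.143). No member separated the sexes without overlap, which 7.94% of tested genes did. Each chow group held a single library of 1 sex, which limits this comparison.

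The chows were in opposite order in the sexes for 6 of the 10 members, Apcdd1, Nkd1, Znrf3, Fzd4, Lrp5 and Adgra2, where 41.6% of all tested genes had such an order. A treatment by sex fit with limma, added after the values were seen, called 0 members, where 0.665% of tested genes were called. Axin2 was higher with bezafibrate in both sexes, which follows from its groups not overlapping and is no further support.

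The other genes of the pathway were taken by role, 104 in all, of which 60 passed the expression filter. Their lists were drawn up with earlier results of these data known, so the counts below are a description and no independent test. limma called 0 of these 60 in the bezafibrate contrast, as did limma-voom, and 5 had an unadjusted p under 0.05, 4 higher and 1 lower, where 4.19% of all tested genes did. Differences lay above 0 in 28 and below 0 in 32, with a median of -0.01, beside -0.01 for all tested genes. The groups did not overlap in 6 of them (2 with bezafibrate above and 4 below), beside 8.42% of all tested genes.

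Of 26 genes for ligands and their secretion, 5 passed the filter and 21 did not. Over all 54532 genes, noncoding ones included, 11277 passed, of which 10066 were protein-coding. By role, 4 of 15 secreted antagonists, 10 of 18 other receptors and 16 of 18 cytosolic components passed. So did 10 of 11 nuclear components, 10 of 11 other targets and all 5 barrier genes. Of the 26 genes, 5 were listed at 0 in every library. The ligands of the barrier pathway were near 0, at 0 to 0.637 FPKM in bezafibrate and 0.0340 to 0.674 FPKM in untreated libraries for Wnt7a, 0.147 to 0.304 and 0.172 to 0.352 for Wnt7b, and 0.137 to 0.388 and 0.278 to 0.410 for the Norrin gene Ndp. Wnt5a, a ligand best known for signalling without beta-catenin, had 12.2, 11.5 and 13.0 FPKM in bezafibrate F_1, M_1 and M_2, against 5.15, 6.51 and 12.1 FPKM in untreated F_1, F_2 and M_1. The untreated male library lay among the bezafibrate values, and the log2 difference was 0.64 (SE 0.267). Wnt11 had 14.1, 2.28 and 1.505 FPKM in bezafibrate F_1, M_1 and M_2 and 2.63, 5.11 and 19.02 FPKM in untreated F_1, F_2 and M_1, high in both libraries that stood apart. In the treatment by sex fit, added after the values were seen, Wnt11 had a male minus female effect of -4.48 in log2(FPKM + 1) (SE 0.493). That fit rests on a single bezafibrate female and a single untreated male library. They are the libraries that stood apart, so sex and these libraries cannot be told apart.

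Of the receptors outside the 10 genes, Reck, the partner of ADGRA2, had 56.03 ± 3.52 FPKM in bezafibrate and 56.5 ± 4.14 FPKM in untreated libraries (SD, n = 3 each). The co-receptor gene Lrp6 had 9.77 ± 1.01 and 8.91 ± 0.708 FPKM, the highest difference of its role list at 0.12 (SE 0.138). The lowest was that of Fzd9, at 0.896, 0.964 and 0.789 FPKM in bezafibrate F_1, M_1 and M_2 and 1.605, 1.47 and 2.54 FPKM in untreated F_1, F_2 and M_1, without overlap at a low level (-0.59, SE 0.203). Among 4 secreted antagonists tested, Sostdc1 had 2.78 ± 2.14 and 1.73 ± 0.826 FPKM and Dkk3 2.21 ± 0.280 and 2.34 ± 0.338 FPKM (SD, n = 3 each).

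In the cytosol, Ctnnb1, the beta-catenin gene itself, had 227 ± 20.4 FPKM in bezafibrate and 242 ± 9.26 FPKM in untreated libraries, and Axin1, the constitutive relative of Axin2, 8.60 ± 1.70 and 8.47 ± 0.801 FPKM (SD, n = 3 each). Log2 differences were -0.10 (SE 0.136) for Ctnnb1 and 0.0072 (SE 0.170) for Axin1. Nkd2, the relative of Nkd1, had 1.57, 2.67 and 3.81 FPKM in bezafibrate F_1, M_1 and M_2, against 1.61, 0.768 and 1.39 FPKM in untreated F_1, F_2 and M_1. Bezafibrate F_1 lay just under the highest untreated library, and the log2 difference was 0.68 (SE 0.272). Csnk1a1, the kinase that primes beta-catenin for degradation, had 31.3 ± 6.29 and 36.0 ± 5.74 FPKM (SD, n = 3 each).

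Nuclear components included Bcl9l, a co-activator of beta-catenin, at 7.72, 6.94 and 6.31 FPKM in bezafibrate F_1, M_1 and M_2 and 5.66, 4.89 and 4.90 FPKM in untreated F_1, F_2 and M_1. Its groups did not overlap, and the log2 difference was 0.38 (SE 0.139). Tcf7l2 had 1.38 ± 0.161 and 1.36 ± 0.134 FPKM and the co-repressor Tle4 6.87 ± 2.67 and 8.60 ± 0.389 FPKM in bezafibrate and untreated libraries (SD, n = 3 each). Among other targets, the forkhead factor gene Foxl2, a beta-catenin target of brain endothelium, had 16.5, 16.6 and 16.4 FPKM in bezafibrate F_1, M_1 and M_2, against 8.89, 12.4 and 12.4 FPKM in untreated F_1, F_2 and M_1. Those groups did not overlap either (0.54, SE 0.157). At the other end of that list was Bambi, a pseudoreceptor of TGF-beta signalling, at 8.70 ± 2.15 and 11.2 ± 1.73 FPKM (SD, n = 3 each). The other genes whose groups did not overlap, named here after their values were seen, were Wls, Tnks2 and Foxf2, each lower with bezafibrate by 0.15 or less in log2(FPKM + 1).

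Of 5 barrier genes that the pathway is known to maintain or repress, 0 were called, where 0.00887% of all tested genes were. The tight junction gene Cldn5 had 921 ± 246 FPKM in bezafibrate and 1183 ± 189.6 FPKM in untreated libraries (log2 difference -0.38, SE 0.225), and the glucose transporter gene Slc2a1 3815 ± 1364 and 4447 ± 1297 FPKM (SD, n = 3 each). The lipid transporter gene Mfsd2a had 269.9 ± 55.3 and 326 ± 101 FPKM and the efflux pump gene Abcb1a 423 ± 66.3 and 457 ± 70.05 FPKM. Plvap, a fenestra gene that the pathway keeps low, had 41.7 ± 13.1 and 41.8 ± 19.1 FPKM (SD, n = 3 each).

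**Figure D5:**
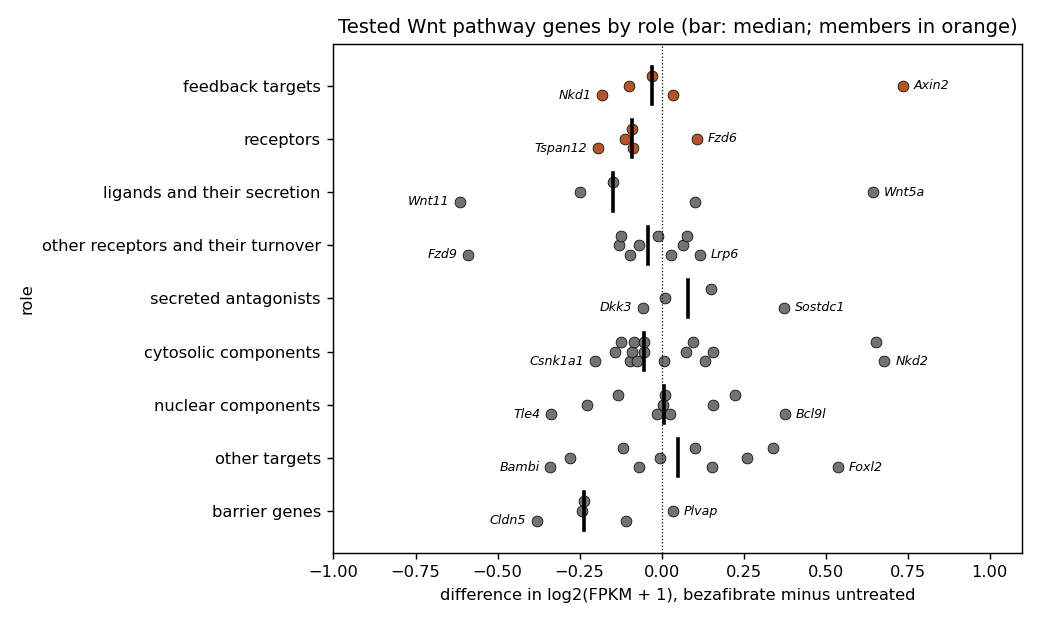
Difference in log2(FPKM + 1), bezafibrate minus untreated, of every tested pathway gene by role (points; the 10 members in orange), with the median of each role as a bar and the highest and lowest gene named. Most points lie near 0, and Axin2 at 0.74 is the highest.

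By root mean square difference between profiles standardised over the 6 libraries, the protein-coding genes most like Axin2 were Zfp157 (0.086 SDs), Rrp36 (0.213), Snrpf (0.225), Rarg (0.247) and Trmt6 (0.248). Zfp157, a zinc finger gene, had 1.24 ± 0.0630 FPKM in bezafibrate and 0.761 ± 0.111 FPKM in untreated libraries, and the retinoic acid receptor gene Rarg 20.8 ± 1.31 and 14.3 ± 0.162 FPKM (SD, n = 3 each). Foxl2 was in place 51 of 10065 genes in this ranking, at 0.373. The other 9 members were in places 1538 (Fzd6) to 9627 (Tspan12), Nkd1 in place 8364 and Lef1 in place 8092. Since any gene that divides by chow ranks high here, the ranking repeats the contrast by which Axin2 was chosen.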

How the data were processed

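RNA-seq was run on endothelial cells sorted from Df(h22q11)/+ mouse brains, in 3 bezafibrate and 3 untreated libraries, each a pool of 3 brains. Per the labels' protocols, duplicate reads were removed and Salmon was run with default settings. GRCm38 is the build in the submitters' processing notes. Salmon's version, the annotation and the strand setting were not found in those sources. The authors deposited 1 table of FPKM values for 54532 genes. The column of the untreated M_1 library was assigned through that sample's description. The authors' FPKM times gene length gave whole reads in each library for 100% of values (tolerance 0.01 reads).

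Values were analysed as log2(FPKM + 1) for the 11277 genes that reached 1 FPKM in 3 or more libraries. limma 3.58.1 in R 4.3.3 (eBayes with trend, two-sided, Benjamini-Hochberg over all tested genes, called at an adjusted p under 0.05) was fitted for treatment without a covariate, since the labels say that sexes were combined, and for sex with treatment as covariate. A treatment by sex fit was added after the values were seen. The fit was tested on simulated data.

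The members and lists were chosen with earlier results of these data known. The members' treatment differences therefore carry no test, and the counts of called genes in the lists are a description. The other pathway genes named were the highest and lowest difference in each role list, the central genes and the barrier genes. Exceptions are marked. The profiles most like Axin2 were ranked by root mean square difference. Alternatives were another pseudocount and filter, TPM and quantile scaling, limma-voom on whole reads, sex as covariate, the replicate block and leaving out libraries. Promoter sequences are from RefSeq, build GRCm38.p6. Exon overlaps used GENCODE M21 of GRCm38, in which 54409 of the genes were found.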

Additional observations from a re-analysis of the deposited data

Results flagged for a closer look

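In 6 members the chows were in opposite order in the sexes: the bezafibrate female library lay on one side of both untreated female libraries, and both bezafibrate male libraries on the other side of the untreated male library. The effect in males minus that in females, in log2(FPKM + 1), was 1.48 for Apcdd1 (SE 0.326), 1.20 for Znrf3 (SE 0.448), -0.42 for Fzd4 (SE 0.253), -0.47 for Adgra2 (SE 0.339), -0.61 for Nkd1 (SE 0.260) and -0.91 for Lrp5 (SE 0.256). Of all tested genes, 41.6% showed such an opposite order. A treatment by sex fit with limma, added after the values were seen, called 0 of the 10 members (smallest adjusted p = 0.0790, for Apcdd1) and 0.665% of all tested genes, and 3 members and 21.3% of all tested genes had an unadjusted p under 0.05.

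The feedback targets minus the receptors showed the same opposite order. Their bezafibrate minus untreated difference was 0.55 in males and -0.16 in females, and the male minus female effect of 0.71 was not tested. Among the other pathway genes named, Wnt11 was called in the treatment by sex fit, at -4.48 (SE 0.493, limma adjusted p = 0.0468), with a bezafibrate minus untreated difference of -2.80 in males and 1.68 in females. An opposite order without a call was found in Tcf7 (-2.04), Slc2a1 (-1.44), Mfsd2a (-1.13), Tle4 (-0.84), Csnk1a1 (-0.82) and Tcf7l2 (0.21). In each case the single library of its sex and chow was bezafibrate F_1 or untreated M_1, the libraries that stood apart over all genes, so sex and these libraries cannot be told apart here. Axin2, whose groups did not overlap, could not show an opposite order, and its differences were 0.60 in males and 0.77 in females.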

How the results depend on the processing

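The count of genes called for bezafibrate over all tested genes, 1 as reported, was 0 with limma-voom on whole reads, 0 without both untreated M_1 and bezafibrate F_1, and 0 with the replicate block. It ran from 0 (without bezafibrate M_1 or M_2) to 3 (without bezafibrate F_1) with a library left out. The count for sex, 3 as reported, ran from 1 to 4. None of the 10 members was called for sex, and none of the 60 other pathway genes for bezafibrate, in any alternative setting. Feedback targets minus receptors, 0.17 as reported, ran from 0.0069 without Axin2 to 0.31 without untreated F_1. It was 0.09 under the replicate block and 0.03 without untreated M_1. Every move was smaller than the within-group SD of 0.234, but this SD exceeds 0.17 itself, so that yardstick could not show a loss of the difference. The Axin2 difference ran from 0.68 to 0.90 over 15 alternatives and moved by more than its within-group SD with TPM (0.89), limma-voom (0.90) and without both libraries that stood apart (0.84). With TPM the median difference over all tested genes was 0.10, against -0.01 as reported, so that relative to it Axin2 moved less. Of 149 member values under alternatives, 146 lay within 1 within-group SD of the reported value. For every member but Axin2 and Tspan12 this SD was wider than the difference itself. The replicate names F_1 and M_1 occur in both groups but mark no pairing in the labels, and the deviations of same-named libraries correlated at -0.36 and -0.30 across genes, so the block was not used. It cannot be fitted for sex, in which the names are nested. Leaving out both libraries that stood apart could not be run for sex, which then coincides with treatment. With 3 pools a group, an exact permutation test of a single gene cannot go below p = 0.1, and Znrf3, at 174 to 639 reads, is the member most limited by depth.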
